A study of Danio rerio with 5 samples.

Results

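The proteasome subunit genes of zebrafish were followed here in RNA sequencing libraries of caudal fin tissue. All genes were taken whose name begins with psma, psmb, psmc, psmd, psme, psmf or psmg and goes on with a digit, which gave 53 of the 31540 genes listed in each library. The group was selected on its measured differences between the 24h and Control libraries, as total gene reads, so its own values in that contrast are a description and carry no test. The symbols fall into 9 alpha and 7 beta subunits of the 20S core, 7 ATPases, 3 other base subunits and 9 lid subunits of the 19S cap. They also include 6 assembly chaperones, 1 inhibitor, 5 activator genes and 5 beta subunits of the immunoproteasome or thymus type. The last symbol, psmc3ip, encodes a meiotic recombination factor named for its binding to an ATPase and is no subunit.

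The study concerned fin regeneration in Danio rerio, in which an amputated fin grows back from wound epidermis and blastema, and 5 libraries are described. Of these, 3 are labelled 24h and 2 are labelled Control, and both groups carry the same tissue label, regenerated tissue of the caudal fin. Neither genotype nor age is labelled, and the time or state that Control stands for is not stated. The series' design text sets regenerating fins 1 day after amputation against those at 3 days, and the labels do not say how Control relates to that. Poly(A) RNA was sequenced from phenol-extracted tissue with a kit that keeps the strand, and the labels do not say whether each library came from separate fish, so p-values measure only the spread between these libraries, which may be technical.

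The proteasome degrades proteins that carry ubiquitin chains. The 20S core is a barrel of alpha and beta rings with its proteolytic sites inside. The 19S cap binds the ubiquitinated protein, removes the chain in its lid and unfolds the protein with the ATPase ring of its base. In vertebrates interferon induces a second set of catalytic beta subunits, the immunoproteasome, and the PA28 activator, which are known for cutting peptides for MHC class I. In mammalian cells a shortage of proteasomes raises the transcription of many subunit genes together through the factor Nrf1.

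The libraries held 22014754, 22341452 and 14958600 gene reads in the 24h group, against 18887167 and 15448344 in the Control group. Of these reads, 0.588%, 0.662% and 0.475% belonged to the 53 genes in the 24h libraries, against 0.437% and 0.397% in the Control libraries. Fin markers were present in both groups: the epidermal genes krt4, krt5 and cdh1 and the matrix genes and1 and col1a1a were all detected in every library. Read counts scaled to library size with TMM factors (CPM) compare a gene between libraries, whereas the deposited TPM values are scaled per transcript length and compare genes with each other. Of 15 fin markers 4 rose and 8 fell by edgeR at 24h, beside 9.43% and 14.8% of all genes fitted. The log2 differences of the 15 were positive for 5 and negative for 10, from -8.58 for col10a1a to 2.77 for msx2b. The 4 became 0 without Control replicate 1, where 4 had an unadjusted p under 0.05, and 1 without Control replicate 2, and the 8 became 4 when the 20 most abundant genes of each library were left out, which removes some of the markers. The 11 markers of other tissues summed to between 1.86 and 2.73 CPM in the 24h libraries, against 0.950 and 1.71 CPM in the Control libraries. The epithelial cadherin cdh1 had 1140.1, 1085 and 1098 CPM in the 24h libraries, against 745 and 673 CPM in the Control libraries (log2 difference 0.64 ± 0.13 (SE), adjusted p = 0.0128 by edgeR's quasi-likelihood test). The epidermal gene krt5 had negative log2 differences, from -0.50 to -0.24 over the alternative fits that included it, but did not pass edgeR's test with all libraries. The collagen gene col1a1a had 3134, 3294 and 4124 CPM in the 24h libraries, against 19933 and 19766 CPM in the Control libraries (log2 difference -2.50 ± 0.18, adjusted p = 9.93e-05 by edgeR). In such bulk samples fewer cells of a type and less RNA per cell cannot be told apart, and the part of these marker differences in the proteasome values was not tested.

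Most subunit genes of the 20S core and the 19S cap stood higher in the 24h libraries, by similar and modest factors, while the interferon-type beta subunits stood lower. Of the 53 genes, 52 had enough reads to be fitted, and their log2 differences, 24h minus Control, had a median of 0.51, a fold of 1.42, against -0.0043 over all 19034 genes fitted. The difference was positive for 44 and negative for 8. With edgeR's quasi-likelihood test and an adjusted p under 0.05, 26 passed as higher, beside 9.43% of all fitted genes, and 2 as lower, beside 14.8%. The CPM of 39 of the 52 were higher in each 24h library than in each Control library, beside 27.7% of fitted genes, and those of 5 were lower in each, beside 29.1%. Of the 26 that passed, 3 were alpha, 4 beta, 7 ATPase, 2 other base and 9 lid genes, and 1 was an activator gene, while the 2 lower ones were psme4a and psmc3ip. Since this contrast was used in choosing the genes, nothing is read from these counts. The count of 26 depended on single libraries: it became 15 without 24h replicate 1, 5 without 24h replicate 2, 36 without 24h replicate 3, and 0 without either Control library. With edgeR on the libraries that remain when Control replicate 1 is left out, 28 members had an unadjusted p under 0.05 in the higher direction, and 2.14% of all genes passed as higher. When Control replicate 2 is left out, these values were 19 and 3.14%. All 26 kept a positive difference under each of the 14 alternatives, with 0.40 as the lowest value.

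**Figure D1:**
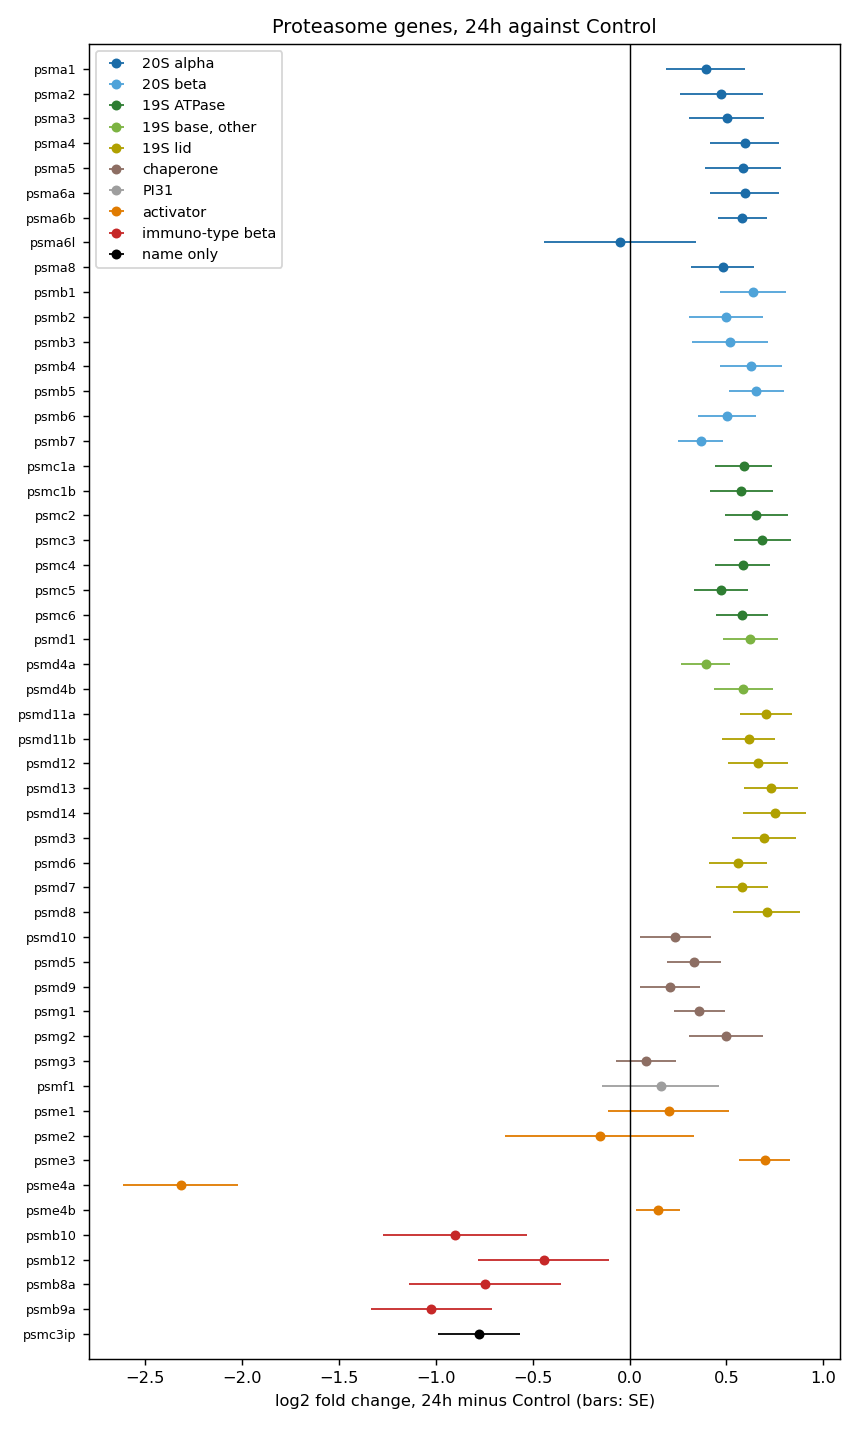
Log2 difference, 24h minus Control, with its approximate standard error (bars) for each of the 52 fitted genes, coloured by their role in the proteasome, from edgeR on 3 24h and 2 Control libraries. The 19 cap genes lie between 0.39 and 0.75, and the 4 immuno-type beta genes lie between -1.02 and -0.44.

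The alpha subunits form the outer rings of the core and gate its entrance. Their 9 log2 differences ranged from -0.05 to 0.59 with a median of 0.50. The largest was that of psma6a, and that of psma4 was the same to 2 decimals. The psma4 gene had 179, 188 and 131 CPM in the 24h libraries, against 116 and 104 CPM in the Control libraries (log2 difference 0.59 ± 0.18). The most abundant alpha gene was psma8, known in mammals as a testis form related to PSMA7, with 390.2 ± 53.6 TPM in the 24h libraries and 287 ± 21.8 TPM in the Control libraries (SD, n = 3 and 2). It had 264, 267 and 200.4 CPM in the 24h libraries, against 184 and 165 CPM in the Control libraries (log2 difference 0.48 ± 0.16). Both genes were higher in every 24h library than in either Control library. The genes psma1, psma2, psma3 and psma5 had log2 differences between 0.39 and 0.59, and in psma1 and psma2 the groups overlapped, with 24h replicate 3 below Control replicate 1. The psma1 gene had 146, 142 and 93.7 CPM in the 24h libraries, against 102 and 91.9 CPM in the Control libraries. The psma2 gene had 96.99, 92.4 and 60.2 CPM in the 24h libraries, against 63.8 and 56.1 CPM in the Control libraries.

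The alpha subunit psma6 has 3 genes in these tables, and their values were not alike. The psma6a gene had 75.7, 79.6 and 55.96 CPM in the 24h libraries, against 49.8 and 43.4 CPM in the Control libraries, and psma6b had 66.4, 61.5 and 56.6 CPM in the 24h libraries, against 41.9 and 40.3 CPM in the Control libraries. Their log2 differences were 0.59 ± 0.18 and 0.58 ± 0.13, and the TPM ratio of psma6b to psma6a overlapped between the groups, at 0.675 ± 0.082 in 24h and 0.661 ± 0.071 in Control. Of the psma6b gene reads, 19.2% in 24h libraries and 20.8% in Control libraries lay in introns, and the gene overlaps nfkbiaa on the opposite strand. The related gene psma6l had 40.2, 36.6 and 15.3 CPM in the 24h libraries, against 36.00 and 27.7 CPM in the Control libraries (log2 difference -0.05 ± 0.39). It was the 1 core gene with a negative difference: 24h replicate 3 was the lowest of all 5 libraries, the other 24h libraries were the highest, and the groups overlapped. Relative to psma6a its TPM ratio was 0.386, 0.336 and 0.200 in the 24h libraries, against 0.522 and 0.463 in the Control libraries. The ratio was thus lower in every 24h library. Since psma6a itself was higher at 24h, this shows unequal change and not a lower level of psma6l.

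The 7 constitutive beta subunits had log2 differences from 0.37 to 0.66, with a median of 0.52. The 3 that cut proteins are psmb5, of chymotrypsin-like, psmb6, of caspase-like, and psmb7, of trypsin-like activity. The psmb5 gene showed the largest difference of the beta class, with 159, 166 and 134 CPM in the 24h libraries, against 93.1 and 101 CPM in the Control libraries (log2 difference 0.66 ± 0.14). Its gene model overlaps FP015916.2 on the same strand. Its reads that cross exon junctions came to 37.4, 41.6 and 34.2 CPM in the 24h libraries, against 22.75 and 25.1 CPM in the Control libraries. The psmb6 gene had 94.2, 92.9 and 74.01 CPM in the 24h libraries, against 64.8 and 58.2 CPM in the Control libraries (log2 difference 0.50 ± 0.15). The smallest difference was that of psmb7, with 75.2, 68.6 and 71.99 CPM in the 24h libraries, against 55.95 and 55.5 CPM in the Control libraries (log2 difference 0.37 ± 0.12). In all 3 the groups did not overlap, and psmb7 was the core gene whose 24h libraries lay closest together. The non-catalytic psmb4 gene had the highest TPM of the core, 434 ± 50.3 in 24h libraries and 289 ± 25.04 in Control libraries, and 213, 208 and 161 CPM in the 24h libraries, against 133 and 118 CPM in the Control libraries (log2 difference 0.63 ± 0.16). The other non-catalytic genes psmb1, psmb2 and psmb3 had log2 differences between 0.50 and 0.64. Core subunits are built into the particle in equal number, but the 16 core genes include 3 for psma6, so they are not 1 gene per subunit. A further gene, si:rp71-45k5.4, carries the symbol PSMA2 but falls outside the name rule and was not counted. The mean TPM of the 16 core genes ranged from 45.3 to 434 in 24h libraries and from 48.8 to 289 in Control libraries, with psma6l the lowest in both. Outside the psma6 genes the lowest was psmb7, at 122 TPM in 24h libraries and 95.8 TPM in Control libraries. The coefficient of variation over the 16 genes, with the psma6 genes taken singly, was 48.6% in 24h libraries and 46.6% in Control libraries.

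**Figure D2:**
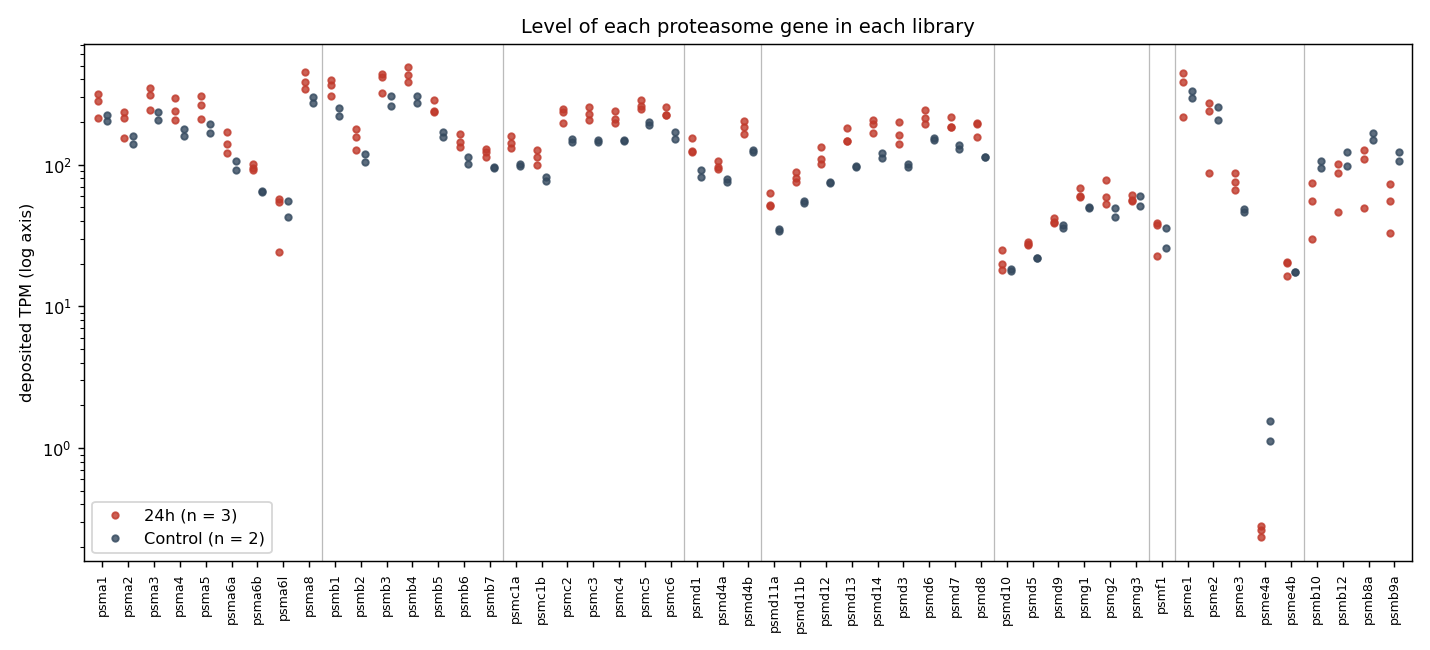
Deposited TPM (log axis) of 51 proteasome genes in each library, 24h left of Control, ordered as alpha, beta, ATPase, other base, lid, chaperone, inhibitor, activator and immuno-type genes with grey lines between classes. The genes psmb11b and psmc3ip are left out, and psme4a stands far below the others, at 0.259 TPM in 24h libraries and 1.33 TPM in Control libraries.

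All 19 cap genes were higher in every 24h library than in either Control library, beside 27.7% of all fitted genes. The ATPase ring unfolds the substrate and threads it into the core. It is encoded by 7 genes here, of which psmc1a and psmc1b encode the same subunit. Their log2 differences ran from 0.47 to 0.68 with a median of 0.58. The largest was that of psmc3, with 194, 189 and 151 CPM in the 24h libraries, against 113 and 109 CPM in the Control libraries (log2 difference 0.68 ± 0.15). Its gene model overlaps slc7a9 on the same strand. The smallest was that of psmc5, also the most abundant ATPase gene at 265 ± 21.1 TPM in 24h libraries and 196 ± 7.74 TPM in Control libraries. It had 208, 198 and 167 CPM in the 24h libraries, against 141 and 134 CPM in the Control libraries (log2 difference 0.47 ± 0.14). The ATPase genes psmc2, psmc4 and psmc6 had log2 differences between 0.58 and 0.66.

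The ATPase psmc1 exists as a pair of genes. The psmc1a gene had 185, 178 and 144 CPM in the 24h libraries, against 115 and 109 CPM in the Control libraries (log2 difference 0.59 ± 0.15). Its copy psmc1b had 91.6, 86.8 and 67.1 CPM in the 24h libraries, against 57.1 and 52.7 CPM in the Control libraries (log2 difference 0.58 ± 0.16). Both members of the pair were higher in each 24h library, and the TPM ratio of psmc1b to psmc1a, 0.780 ± 0.025 in 24h and 0.797 ± 0.016 in Control, overlapped between the groups.

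The other base genes encode the scaffold psmd1 and the ubiquitin receptor psmd4. The psmd1 gene had 211, 227 and 184 CPM in the 24h libraries, against 144 and 125 CPM in the Control libraries (log2 difference 0.62 ± 0.14). Of the pair of receptor genes, psmd4b had 145, 138 and 109 CPM in the 24h libraries, against 88.7 and 85.3 CPM in the Control libraries (log2 difference 0.59 ± 0.15). The psmd4a gene had 87.5, 85.6 and 75.8 CPM in the 24h libraries, against 65.1 and 61.2 CPM in the Control libraries (log2 difference 0.39 ± 0.13). All 3 were higher in every 24h library than in either Control library. The TPM ratio of psmd4b to psmd4a was 1.95, 1.92 and 1.71 in the 24h libraries, against 1.61 and 1.64 in the Control libraries, so psmd4b made up more of the pair at 24h. The psmd4a model overlaps on its own strand a second gene model named PSMD4 (1 to many), and only 76.2% of its reads in 24h libraries and 73.4% in Control libraries were assigned uniquely, so its level is uncertain.

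The lid had the largest median log2 difference of the classes with more than 1 gene, 0.69, a fold of 1.62, with all 9 genes between 0.56 and 0.75. The largest was that of psmd14, the deubiquitinase that strips the ubiquitin chain from the substrate, with 114, 106 and 83.6 CPM in the 24h libraries, against 62.7 and 58.02 CPM in the Control libraries (log2 difference 0.75 ± 0.16). Its partner psmd7 had 157, 159 and 132 CPM in the 24h libraries, against 96.96 and 103 CPM in the Control libraries (log2 difference 0.58 ± 0.13). Of the psmd7 reads, 49.7% in 24h libraries and 51.3% in Control libraries were assigned uniquely. The smallest difference was that of psmd6, a scaffold subunit and the most abundant lid gene at 217 ± 25.1 TPM in 24h libraries and 152 ± 5.01 TPM in Control libraries. It had 156, 154 and 121 CPM in the 24h libraries, against 95.4 and 99.8 CPM in the Control libraries (log2 difference 0.56 ± 0.15). In these genes, too, the groups did not overlap.

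The lid subunit psmd11, which clamps the cap to the core, is again encoded by a pair of genes. The psmd11a gene had 111, 118 and 96.2 CPM in the 24h libraries, against 65.8 and 67.4 CPM in the Control libraries (log2 difference 0.70 ± 0.13), and psmd11b had 109.9, 104 and 88.2 CPM in the 24h libraries, against 67.1 and 64.6 CPM in the Control libraries (log2 difference 0.61 ± 0.14). Their TPM ratio, psmd11b over psmd11a, was 1.48 ± 0.09 in 24h and 1.58 ± 0.06 in Control and overlapped. The scaffold genes psmd3, psmd8, psmd12 and psmd13 had log2 differences of 0.69 ± 0.17, 0.71 ± 0.17, 0.66 ± 0.16 and 0.73 ± 0.14. Of the psmd3 reads, 16.4% in 24h libraries and 22.5% in Control libraries lay in introns and 71.6% and 66.5% were assigned uniquely, and its model spans other gene models.

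Summed over a class, the 9 lid genes held 1314, 1304 and 1024 CPM in the 24h libraries, against 762 and 771 CPM in the Control libraries. The 19 cap genes held 3006, 2955 and 2372 CPM in the 24h libraries, against 1839 and 1783 CPM in the Control libraries. The core held 2322, 2275 and 1672 CPM in the 24h libraries, against 1527 and 1371 CPM in the Control libraries. In each sum 24h replicate 3 lay between the other 24h libraries and the Control libraries. The sums cover only genes with psm names. The genes adrm1 and shfm1, given below among proteins that join or serve the proteasome, are outside them. Reads that cross exon junctions, which exclude intronic reads, kept the order between the groups for the lid. They came to 888, 894 and 692 CPM in the 24h libraries, against 508 and 505 CPM in the Control libraries.

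The 24h libraries were not alike in these genes. Of the 35 core and cap genes, 34 were lower in 24h replicate 3 than in both other 24h libraries, the exception being psmb7, and its level had a median of 76.6% of their mean. Over all fitted genes that median was 98.7%. Of all 53 members, 49 had their lowest 24h value in replicate 3, beside 35.7% of fitted genes. The shortfall differed by class, with summed levels of replicate 3 at 78.3% of the mean of the other 24h libraries for the lid, 80.0% for the ATPases, 69.8% for the alpha and 76.4% for the beta genes, but 54.3% for the activators and 41.2% for the immuno-type genes. Replicate 3 also has the fewest reads of all the libraries, and the part of the library itself in these values was not tested.

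The assembly chaperones, which leave the finished particle, differed less between the groups. Their 6 log2 differences ranged from 0.08 to 0.50 with a median of 0.28. Of the genes that build the alpha ring, psmg1 had 41.4, 40.9 and 35.5 CPM in the 24h libraries, against 31.4 and 29.9 CPM in the Control libraries (log2 difference 0.36 ± 0.13). Its partner psmg2 had 33.3, 37.4 and 25.3 CPM in the 24h libraries, against 24.4 and 20.9 CPM in the Control libraries (log2 difference 0.50 ± 0.19). A further alpha ring chaperone, psmg3, had 23.8, 22.4 and 19.99 CPM in the 24h libraries, against 19.1 and 22.5 CPM in the Control libraries (log2 difference 0.08 ± 0.15), and was the 1 chaperone gene in which the groups overlapped. Among those that help to assemble the base, psmd5 had 30.2, 27.4 and 25.8 CPM in the 24h libraries, against 21.7 and 22.4 CPM in the Control libraries (log2 difference 0.33 ± 0.14). The psmd9 gene had 20.3, 18.4 and 16.7 CPM in the 24h libraries, against 15.5 and 16.5 CPM in the Control libraries (log2 difference 0.21 ± 0.16). The psmd10 gene, known as gankyrin, had 11.98, 14.3 and 11.1 CPM in the 24h libraries, against 10.8 and 10.4 CPM in the Control libraries (log2 difference 0.24 ± 0.18). Of the 6, 0 passed edgeR's test at an adjusted p under 0.05, beside 9.43% of all genes as higher, and 3 had an unadjusted p under 0.05. DESeq2 called 0, beside 11.3% of all genes as higher. Without 24h replicate 3, psmg2 passed as higher, at 0.64, beside 9.18% of all genes in that fit. The psmf1 gene encodes PI31, named as an inhibitor of the core, and had 26.2, 22.3 and 13.05 CPM in the 24h libraries, against 21.3 and 15.4 CPM in the Control libraries (log2 difference 0.16 ± 0.30). Its groups overlapped.

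The activators cap the core in place of 19S, and their genes moved apart. PA28 gamma, a nuclear ring encoded by psme3, had 76.1, 87.5 and 73.9 CPM in the 24h libraries, against 47.8 and 49.8 CPM in the Control libraries (log2 difference 0.70 ± 0.13). The interferon-inducible PA28 pair, psme1 and psme2, was instead split by library. The psme1 gene had 229.8, 229 and 109.8 CPM in the 24h libraries, against 174 and 156 CPM in the Control libraries (log2 difference 0.20 ± 0.31). The psme2 gene had 211, 208 and 66.02 CPM in the 24h libraries, against 199.6 and 161 CPM in the Control libraries (log2 difference -0.15 ± 0.49). In both genes 24h replicate 3 was the lowest of the 5 libraries and the other 24h libraries were the highest. Without replicate 3 the log2 differences were 0.48 for psme1 and 0.22 for psme2, a turn of sign. In that fit psme1 passed the test as higher, beside 9.18% of all genes.

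Relative to psme3, both genes of the interferon-inducible pair were lower at 24h in every library. The TPM ratio of psme1 to psme3 was 5.83, 5.07 and 2.84 in the 24h libraries, against 7.10 and 6.10 in the Control libraries. That of psme2 to psme3 was 3.64, 3.14 and 1.16 in the 24h libraries, against 5.54 and 4.27 in the Control libraries. Since psme3 itself differed between the groups, these ratios show unequal change and not which gene changed.

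PA200, a single-chain activator, is encoded by psme4a and psme4b. The psme4b gene made up nearly all of it and had 64.1, 68.9 and 68.7 CPM in the 24h libraries, against 61.1 and 60.4 CPM in the Control libraries (log2 difference 0.15 ± 0.11). The psme4a gene had 18, 21 and 13 reads in the 24h libraries, against 70 and 77 in the Control libraries, or 0.880, 0.889 and 0.844 CPM in 24h and 3.69 and 5.08 CPM in Control (log2 difference -2.32 ± 0.30). It lies on chromosome 13 from 35563917 to 35619133 in GRCz10 and showed the largest difference of any member, at a low level. With limma on log2(TPM + 1), a scale that understates the change of low genes, its difference was -0.88, and it was lower under all 14 alternatives. The ratio of psme4b to psme4a in TPM was 69.7, 77.6 and 73.9 in the 24h libraries, against 15.8 and 11.4 in the Control libraries.

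**Figure D3:**
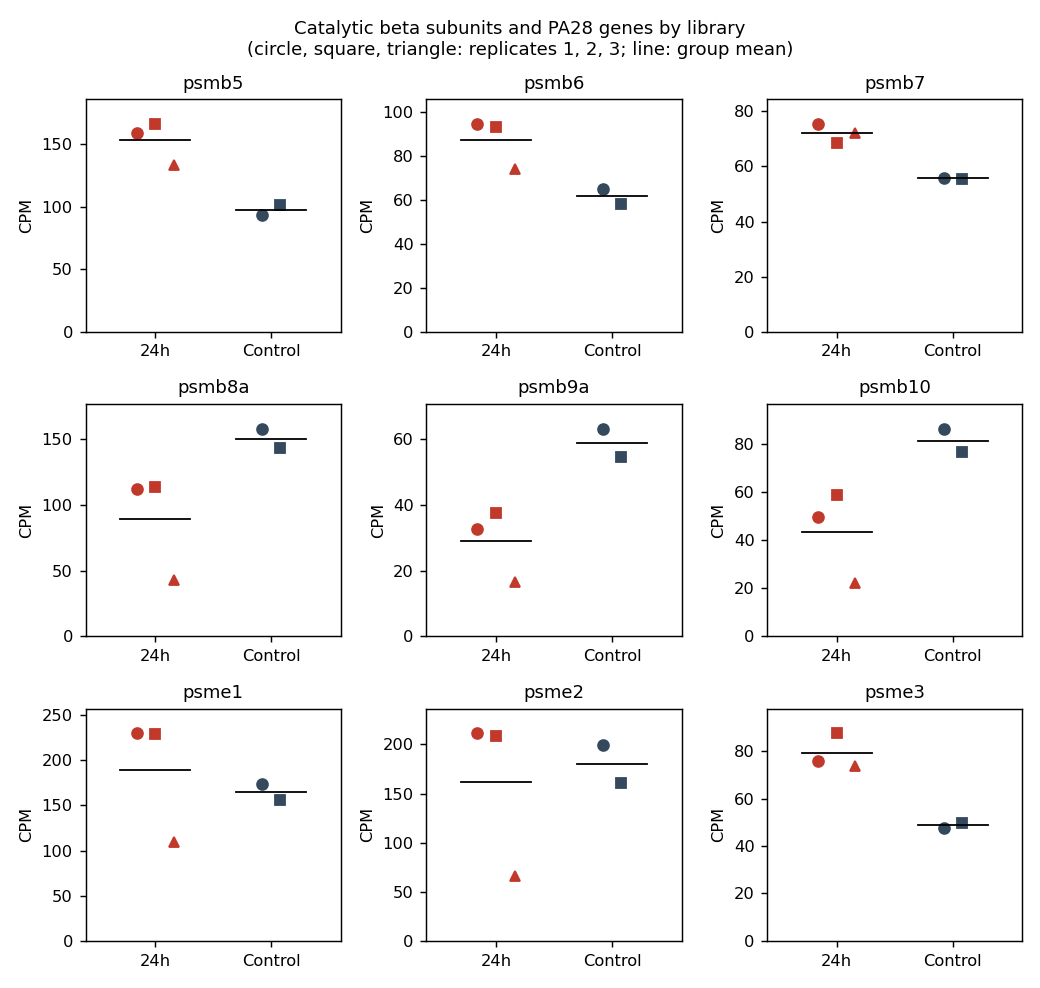
CPM (linear axes from 0) of the catalytic beta subunits psmb5, psmb6 and psmb7, their immuno-type counterparts psmb8a, psmb9a and psmb10, and the PA28 genes in each 24h library (left, n = 3) and Control library (right, n = 2), with group means as lines. The upper row and psme3 are higher in every 24h library, the middle row is lower in every 24h library, and psme1 and psme2 overlap, with 24h replicate 3 (triangle) lowest.

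The immuno-type beta subunits went the other way. The psmb9a gene, counterpart of psmb6, had 32.7, 37.4 and 16.5 CPM in the 24h libraries, against 63.1 and 54.6 CPM in the Control libraries (log2 difference -1.02 ± 0.31). The psmb10 gene, counterpart of psmb7, had 49.5, 59.1 and 22.1 CPM in the 24h libraries, against 86.5 and 76.7 CPM in the Control libraries (log2 difference -0.90 ± 0.37). The psmb8a gene, counterpart of psmb5, had 112, 114 and 43.04 CPM in the 24h libraries, against 158 and 143 CPM in the Control libraries (log2 difference -0.75 ± 0.39). In these 3 every 24h library lay below both Control libraries, as in 29.1% of all fitted genes, and replicate 3 was lowest by far. A further gene of this kind, psmb12, which sits in the same chromosome region, had 38.98, 38.8 and 17.6 CPM in the 24h libraries, against 48.6 and 38.1 CPM in the Control libraries (log2 difference -0.44 ± 0.34), and its groups overlapped. The median of the 4 was -0.82, a fold of 0.565. Of the 4, 0 passed edgeR's test as lower, beside 14.8% of all genes, and 2 had an unadjusted p under 0.05. DESeq2 called 1 lower, psmb9a, beside 15.5% of all genes. Without 24h replicate 3 the median was -0.50 and 2 passed as lower, psmb9a at -0.74 and psmb10 at -0.58, beside 15.6% of all genes in that fit. As the genes were chosen on this contrast, these calls are a description only. The thymus-type gene psmb11b had 0, 1 and 1 reads in the 24h libraries, against 5 and 2 in the Control libraries, and was not fitted.

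Within each library the immuno-type subunit was set against the constitutive subunit it replaces. The TPM ratio of psmb8a to psmb5 was 0.461, 0.445 and 0.211 in the 24h libraries, against 1.06 and 0.880 in the Control libraries. For psmb9a over psmb6 it was 0.386, 0.446 and 0.249 in the 24h libraries, against 1.07 and 1.05 in the Control libraries. For psmb10 over psmb7 it was 0.490, 0.609 and 0.229 in the 24h libraries, against 1.11 and 0.987 in the Control libraries. Within these gene pairs the transcripts were thus near equal per length in the Control libraries, and the immuno-type gene had the fewer in every 24h library. These ratios combine a higher denominator and a lower numerator at 24h. They leave out the PSMB10 model on chromosome 4, a second gene named for the same subunit as psmb10. That model had 96.9, 118 and 49.5 TPM in the 24h libraries, against 107 and 70.9 TPM in the Control libraries. The ratios therefore do not cover all transcripts of the 2 kinds.

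**Figure D4:**
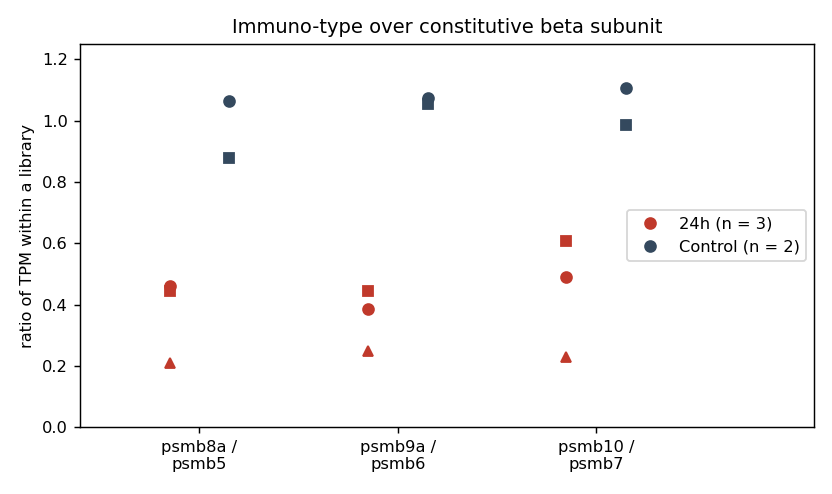
TPM of an immuno-type beta subunit over that of the constitutive subunit it replaces, within each library (24h left, n = 3; Control right, n = 2; circle, square and triangle for replicates 1, 2 and 3). The 24h ratios run from 0.211 to 0.609 and the Control ratios from 0.880 to 1.11.

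The 4 immuno-type genes lie side by side on chromosome 19 of GRCz10, and their gene models overlap. The psmb8a model runs from 7186913 to 7225623 and psmb10 from 7192854 to 7225660, both on the minus strand and overlapping each other. On the plus strand within them lie psmb12, from 7196298 to 7200531, and psmb9a, from 7201455 to 7203448, beside the peptide transporter gene abcb3l1. Whether the counting used the strand is not given in the sources used here, so reads could have been split between these genes. The share of reads assigned uniquely was 82.2% in 24h libraries and 78.3% in Control libraries for psmb8a, and 81.4% and 79.1% for psmb10. Junction-crossing reads of the class came to 174, 184 and 74.6 CPM in the 24h libraries, against 258 and 222 CPM in the Control libraries, the same order as the gene reads.

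The gene lists compared here and below were chosen with earlier results of these data known, so their counts are a description. Other genes of antigen processing and interferon signalling were compared from a list of 32, of which 31 were fitted. They had a median log2 difference of -0.34, and edgeR called 2 lower, beside 14.8% of all genes, and 0 higher, with 0 having an unadjusted p under 0.05 in the higher direction and 0 called higher by DESeq2. The signalling factor stat1a had 73.7, 87.98 and 70.7 CPM in the 24h libraries, against 118 and 125 CPM in the Control libraries (log2 difference -0.65 ± 0.14, adjusted p = 0.0137 by edgeR). The class I gene mhc1uka had 17.7, 18.6 and 15.9 CPM in the 24h libraries, against 26.8 and 43.6 CPM in the Control libraries (log2 difference -1.01 ± 0.21, adjusted p = 0.0142 by edgeR). In both genes every 24h library lay below both Control libraries, and each call was lost with some single library left out. The list summed to 6712, 5405 and 2841 CPM in the 24h libraries, against 6151 and 5755 CPM in the Control libraries. Its level in 24h replicate 3 was 46.9% of the mean of the other 24h libraries. Without replicate 3 the list's median was 0.01. The 2 calls became 3 without 24h replicate 1, 4 without 24h replicate 2 and 1 without either Control library.

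Markers of leukocytes, the cells in which immunoproteasomes are best known, were mostly lower at 24h. Of 21 markers 18 were fitted, and by edgeR 11 of them fell, beside 14.8% of all genes, and 0 rose, with a median of -1.04. The 11 became 5 without Control replicate 1 and 6 without Control replicate 2. In the higher direction 0 had an unadjusted p under 0.05, and DESeq2 called 0. The hematopoietic gene plek had 3.77, 2.79 and 2.92 CPM in the 24h libraries, against 14.5 and 11.7 CPM in the Control libraries (log2 difference -2.05 ± 0.22, adjusted p = 0.000805 by edgeR). The lymphoid factor gene ikzf1 had 1.71, 1.69 and 0.779 CPM in the 24h libraries, against 7.50 and 6.46 CPM in the Control libraries (log2 difference -2.29 ± 0.34, adjusted p = 0.00332 by edgeR). Both were lower in every 24h library, and both calls held under each of the 14 alternatives. The summed markers ran from 364 to 512 CPM in the 24h libraries, against 730 to 780 CPM in the Control libraries. The B cell marker cd79b was at 0 in all 24h libraries and lyz, which marks phagocytes, at under 1 CPM in all 5. The part of these cells in the immuno-type values was not tested.

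The wider ubiquitin system was read from 6 lists of genes outside the psm names, likewise chosen with earlier results of these data known. Together 92 of their genes were fitted, 19 rose and 1 fell by edgeR, beside 9.43% and 14.8% of all genes, and the median log2 difference was 0.22. Of these 20 calls, 19 were lost when some single library was left out, the exception being ube2e3. The 19 genes that rose became 11 without 24h replicate 1, 4 without 24h replicate 2, 0 without Control replicate 1 and 2 without Control replicate 2. In the fit with 0, 11 had an unadjusted p under 0.05 in the higher direction. With Control replicate 1 left out, 0 genes were called in the lists of proteasome partners and of p97 and its shuttles, where 3 and 5 had an unadjusted p under 0.05, and 0 of the conjugating and activating enzymes were called higher, where 3 had one. With Control replicate 2 left out, the genes called higher in these lists were 0, 0 and 1.

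Proteins that join or serve the proteasome were the list with the highest median, 0.45. Of its 11 genes 6 were higher and 0 lower, beside 9.43% and 14.8% of all genes. In the lower direction 0 had an unadjusted p under 0.05 and DESeq2 called 0. The deubiquitinase usp14, which sits on the cap, had 102, 104 and 87.4 CPM in the 24h libraries, against 62.4 and 61.3 CPM in the Control libraries (log2 difference 0.67 ± 0.13, adjusted p = 0.0109 by edgeR). The ubiquitin receptor adrm1 had 91.6, 94.8 and 75.4 CPM in the 24h libraries, against 57.8 and 58.3 CPM in the Control libraries (log2 difference 0.59 ± 0.14, adjusted p = 0.0228 by edgeR). Both were higher in every 24h library than in either Control library. Of the other genes that rose, uchl5 encodes the deubiquitinase bound by adrm1 (log2 difference 0.62 ± 0.16) and akirin2 brings proteasomes into the nucleus in mammalian cells (0.52 ± 0.13). The thioredoxin-like txnl1, which binds the cap, and zfand5a also rose (0.45 ± 0.12 and 0.62 ± 0.16), and the adjusted p of these 4 lay between 0.0284 and 0.0362 by edgeR. The core maturation factor pomp had 132, 131 and 95.4 CPM in the 24h libraries, against 93.2 and 82.1 CPM in the Control libraries and did not pass (log2 difference 0.45 ± 0.17, adjusted p = 0.103 by edgeR). Nor did shfm1, with 144, 143 and 114 CPM in the 24h libraries, against 104 and 104 CPM in the Control libraries (log2 difference 0.36 ± 0.14, adjusted p = 0.113 by edgeR).

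The segregase p97 pulls ubiquitinated proteins out of complexes ahead of the proteasome. Of the 16 fitted genes of p97, its cofactors and the shuttle receptors 4 rose, beside 9.43% of all genes, with a median of 0.37. The cofactor nsfl1c had 142, 139 and 113 CPM in the 24h libraries, against 80.6 and 73.6 CPM in the Control libraries (log2 difference 0.76 ± 0.15, adjusted p = 0.00946 by edgeR). The p97 gene vcp had 897, 851 and 759.5 CPM in the 24h libraries, against 563 and 551 CPM in the Control libraries (log2 difference 0.59 ± 0.14, adjusted p = 0.0212 by edgeR). In both, the groups did not overlap. The cofactor nploc4 and the shuttle ubqln4 also rose (log2 differences 0.57 ± 0.14 and 0.40 ± 0.11, adjusted p = 0.0225 and 0.0414 by edgeR).

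Of 35 ubiquitin activating and conjugating enzymes 7 rose and 1 fell, beside 9.43% and 14.8% of all genes, with a median of 0.27. The conjugating enzyme ube2e3 had 34.9, 33.8 and 31.2 CPM in the 24h libraries, against 61.9 and 60.1 CPM in the Control libraries (log2 difference -0.87 ± 0.12, adjusted p = 0.00206 by edgeR). The conjugating enzyme ube2g1a had 62.6, 59.9 and 53.3 CPM in the 24h libraries, against 33.6 and 36.4 CPM in the Control libraries (log2 difference 0.74 ± 0.13, adjusted p = 0.00671 by edgeR). Each 24h library lay below both Control libraries for ube2e3 and above both for ube2g1a. The activating enzyme uba1, which starts most ubiquitination, had 519.9, 522 and 488 CPM in the 24h libraries, against 378 and 379 CPM in the Control libraries (log2 difference 0.43 ± 0.12, adjusted p = 0.0412 by edgeR). Of the genes encoding ubiquitin, ubc had 1200.0, 1095 and 951 CPM in the 24h libraries, against 853 and 842 CPM in the Control libraries (log2 difference 0.35 ± 0.15, adjusted p = 0.127 by edgeR) and did not pass. The log2 differences of rps27a and ubb were 0.13 ± 0.15 and 0.06 ± 0.19, and neither passed (adjusted p = 0.558 and 0.849 by edgeR). Of 15 genes of degradation at the endoplasmic reticulum edgeR and DESeq2 called 0, with a median of 0.06, while 2 had an unadjusted p under 0.05 in each direction. With unique gene reads, exon reads or either limma fit 1 gene was called lower. The smallest p in that list belonged to derl3 (log2 difference -0.68 ± 0.23, adjusted p = 0.072 by edgeR) and os9 (log2 difference -0.45 ± 0.16, adjusted p = 0.0744 by edgeR). The derl3 gene was the 1 called lower with those reads and fits, at -1.04 with unique gene reads, -1.50 with exon reads, and -1.31 and -1.51 with limma on log2(TPM + 1) and log2(TPM + 0.1). Of its gene reads 91.4% in 24h libraries and 85.3% in Control libraries lay in introns, and its model overlaps other genes on both strands, so its level is uncertain. Its edgeR difference was -0.94 without Control replicate 2, and then passed, and -0.35 without Control replicate 1, where it did not. The os9 gene passed without 24h replicate 3, at -0.58.

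The last list held the factors known to switch subunit genes and their regulators, and 2 of its 13 fitted genes rose, beside 9.43% of all genes. Both calls were lost without 24h replicate 1 or 24h replicate 2. In those fits 4 and 3 genes had an unadjusted p under 0.05 in the higher direction. Without 24h replicate 3, 1 gene was called higher and 1 lower. The calls also rested on the Control libraries: neither held throughout when each of these was left out in turn. Without Control replicate 2 the largest log2 difference of the list was that of the inhibitor gene keap1a, 0.96. Nrf1 is encoded by nfe2l1a, with 10.6, 10.8 and 10.5 CPM in the 24h libraries, against 9.98 and 10.5 CPM in the Control libraries, and nfe2l1b, with 62.6, 60.5 and 56.2 CPM in the 24h libraries, against 43.8 and 57.9 CPM in the Control libraries. Their log2 differences were 0.06 ± 0.16 and 0.23 ± 0.15, and neither passed (adjusted p = 0.825 and 0.299 by edgeR). Nrf1 is made active by the glycanase ngly1 and the protease ddi2. The ngly1 gene had 51.2, 49.2 and 40.3 CPM in the 24h libraries, against 29.3 and 33.5 CPM in the Control libraries (log2 difference 0.58 ± 0.15, adjusted p = 0.0314 by edgeR), and was higher in every 24h library. The ddi2 gene had 82.9, 81.7 and 83.3 CPM in the 24h libraries, against 68.2 and 72.9 CPM in the Control libraries and did not pass (log2 difference 0.23 ± 0.11, adjusted p = 0.183 by edgeR). The repressor gene bach1b had 63.1, 46.4 and 50.4 CPM in the 24h libraries, against 34.2 and 38.4 CPM in the Control libraries (log2 difference 0.55 ± 0.16, adjusted p = 0.0472 by edgeR), and bach1a -0.30 ± 0.24. With all libraries, none of the related factors nfe2l2a (0.40 ± 0.23), nfe2l2b (0.05 ± 0.36) and nfe2l3 (0.29 ± 0.15) passed. Nor did their inhibitor genes keap1a (0.60 ± 0.22) and keap1b (0.13 ± 0.20) or the partner genes mafk (-1.19 ± 0.44) and maff (-0.22 ± 0.15). The mafk gene was the 1 that passed as lower without 24h replicate 3, at -1.77. The partner genes mafga and mafgb had too few reads to be fitted.

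**Figure D5:**
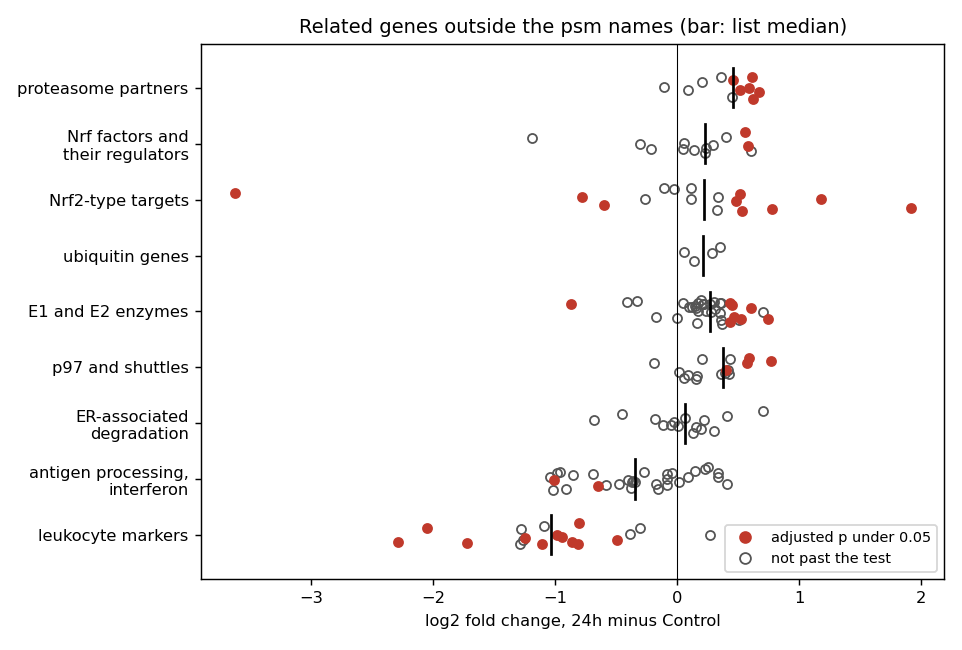
Log2 difference, 24h minus Control, of each fitted gene in 9 lists outside the psm names (one row per list; filled points have an edgeR adjusted p under 0.05; black bars are list medians). The medians run from 0.45 for proteasome partners to -1.04 for leukocyte markers, and each point is 1 gene.

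The name psmc3ip belongs to no proteasome subunit, and the gene behaved apart from the ATPase it is named for. It had 3.62, 4.23 and 3.77 CPM in the 24h libraries, against 6.70 and 6.59 CPM in the Control libraries (log2 difference -0.78 ± 0.21). Every 24h library lay below both Control libraries, but its call was lost under 9 of the 14 alternatives.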

How the data were processed

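Caudal fin RNA was sequenced in 3 24h and 2 Control libraries, grouped by the labels. The authors' deposited tables give, per the file headers, whole-number read counts per gene (total, unique, exon, intron and junction reads) and TPM; the build was GRCz10 per the submitters' processing notes, and the aligner is not given in the sources used here. The deposited RPKM columns were not used. The kit keeps the strand per the labels' protocols, but whether counting used it is not given.

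The members and lists were chosen with earlier results of these data known. Total gene reads of all 31540 genes were filtered with filterByExpr, which left 19034, scaled by TMM and fitted with edgeR 4.0.16 (quasi-likelihood F test, robust, R 4.3.3), with Benjamini-Hochberg adjustment over all genes and a threshold of 0.05. Standard errors are approximate, from the log2 difference and its F statistic. The code was tested on simulated data. The common coefficient of variation between libraries was 20.2%, and total gene reads ran from 14958600 to 22341452, which limits precision for low genes such as psme4a and psmb11b. A chi-square comparison of gene counts, 15.2 or more per degree of freedom for each pair of libraries in a group, found no pair of libraries that agreed within sampling noise.

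Values were given for the largest, smallest and most abundant member of each class, for all activator, chaperone, inhibitor and immuno-type members, for gene pairs and for the catalytic core subunits. In each further list, the fin and other-tissue markers apart, values were given for the 2 genes with the smallest p. The fin markers cdh1 and col1a1a were not chosen by that rule. Further list genes were named whether or not they passed the test, and not every gene that passed is named. Among those named, pomp and shfm1 did not pass, and cd79b and lyz were not fitted. Alternatives were DESeq2 1.42.0, other scaling, filters and read classes, limma 3.58.1 on log2(TPM + 1) and log2(TPM + 0.1), omission of the 20 most abundant genes of each library, and omission of each library. Sequence features of the members were not analysed here. The result of 1 further list gene is not reported here.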

Additional observations from a re-analysis of the deposited data

How the results depend on the processing

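The median log2 difference of the members ranged from 0.44 to 0.66 over the 14 alternatives, beside 0.51, and 34 of the 35 core and cap genes were positive in all of them, the exception being psma6l. No call turned its sign. Counts of calls rested on single libraries. Leaving out 1 library at a time, the genes called higher ranged from 418 to 1740 beside 1794 and those called lower from 1372 to 2953 beside 2824. The members called higher ranged from 0 to 36 and those called lower from 1 to 3. In the ubiquitin lists the genes called higher ranged from 0 to 20 and those called lower from 1 to 3. The member calls lost with a library left out were 27 of 28. The count of members called lower was 1 with unique gene reads and 1 with exon reads, beside 2. The ubiquitin-list genes called lower were 2 with unique gene reads, 2 with exon reads, 2 with limma on log2(TPM + 1) and 2 on log2(TPM + 0.1), beside 1. The cause was not tested, except that leaving out a Control library leaves 1, which is assumed to vary like the 24h group. TPM recomputed from exon reads and exon length gave the same summed TPM, 8258 in 24h and 6229 in Control. The promoter window alternative was not run. No paired analysis was possible because the replicate numbers were given in accession order and the labels tie no 24h library to a Control library. Depth limits low genes, chiefly psmb11b and psme4a.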

Other observations

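The oxidative stress genes known as targets of Nrf2, a relative of Nrf1, differed in direction among themselves. Of 16 fitted, 6 rose and 3 fell by edgeR, beside 9.43% and 14.8% of all genes, with a median log2 difference of 0.22. The 6 became 3 without 24h replicate 1 or 24h replicate 2 and 2 without either Control library. The 3 became 2 without 24h replicate 1, 1 without 24h replicate 2, and 0 without Control replicate 1, where 3 had an unadjusted p under 0.05. Heme oxygenase, hmox1a, had 81.7, 57.4 and 56.6 CPM in the 24h libraries, against 18.7 and 15.9 CPM in the Control libraries (log2 difference 1.91 ± 0.21, adjusted p = 0.000761 by edgeR). The cystine transporter slc7a11 had 36.6, 35.1 and 29.8 CPM in the 24h libraries, against 14.4 and 15.6 CPM in the Control libraries (log2 difference 1.18 ± 0.15, adjusted p = 0.00176 by edgeR). Both were higher in every 24h library, and both calls held under all 14 alternatives. The others that rose were txnrd1, gclm, pgd and zgc:92066. Over the alternatives their log2 differences ran from 0.63 to 0.86, 0.39 to 0.58, 0.39 to 0.62 and 0.40 to 0.54, and each call was lost under some of them. The genes that fell were gstp1 (-0.78 ± 0.18), gstp2 (-3.63 ± 0.76) and the quinone reductase nqo1 (-0.60 ± 0.13). The gstp2 gene had 8, 8 and 2 reads in the 24h libraries, against 118 and 18 reads in the Control libraries, and without Control replicate 1 its difference was -1.98. Without that library gstp1 was at -0.53 and nqo1 at -0.44, and the calls of all 3 were lost.

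Apart from the 53 genes, 3 gene models carry a PSM name in capitals. The PSMB10 model on chromosome 4, a second gene named for the immuno-type subunit, had 50.6, 53.1 and 22.3 CPM in the 24h libraries, against 48.5 and 32.9 CPM in the Control libraries (log2 difference 0.05 ± 0.38). Its groups overlapped, unlike those of psmb10 on chromosome 19, and 24h replicate 3 was again the lowest library. The PSMG4 model, named for a chaperone of the alpha ring, had 20.9, 21.1 and 16.9 CPM in the 24h libraries, against 17.3 and 17.1 CPM in the Control libraries (log2 difference 0.19 ± 0.16), and its groups overlapped. The third, PSMD4 (1 to many), overlapped psmd4a, and nearly all of its reads were intronic. These genes were looked up after the values of the 53 were seen.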
